A study of Mus musculus with 2 samples.

Results

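Lcn2, Hp, Mt1, Mt2, Mt4, Slc39a14, Steap4, Tfrc, Slc40a1 and Hmox1 encode proteins that bind, move or release iron, zinc or haem. They were chosen by gene symbol, and each of the 10 was found once among the 27998 genes of the count files. Their RNA was followed in mouse dorsal skin, cell lineage by cell lineage, in inflamed skin and in control skin.

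The study profiled single cells of skin after psoriasis-like inflammation had been induced with imiquimod (IMQ), an agonist of Toll-like receptor 7 that is used in a cream. The IMQ library came from wild-type C57BL/6 mice aged 2 months whose skin received IMQ each day for 5 days. The control library came from wild-type C57BL/6 mice of the same age, all described as adult females. Both tissues were digested with collagenase D and DNase1, depleted of dead cells and sequenced as 10x 3' libraries. There was 1 library in each group, and the number of animals behind each is not stated. The comparisons below are therefore between these libraries and not between conditions, and no test was possible.

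The IMQ library listed 9414 barcodes and the control library 10857, of which 8499 and 10297 had at least 200 genes and at most 10% mitochondrial unique molecular identifiers (UMIs, each a counted RNA molecule). Kept cells had a median of 12650 UMIs in the IMQ library and 9596 UMIs in the control library. Marker genes assigned 17454 of the 18796 kept cells to a lineage. Lineage names such as fibroblast stand for cells that passed that marker gate. The IMQ and control libraries had 3761 and 7081 fibroblasts, 2108 and 1546 keratinocytes, 358 and 83 macrophages and monocytes, 409 and 246 T and NK cells, 184 and 316 pericytes and smooth muscle cells, and 170 and 157 Schwann cells. They had 123 and 32 blood endothelial cells, 136 and 37 lymphatic endothelial cells, and 285 and 8 neutrophils. There was no gate for adipocytes. The libraries had 23 barcodes in common.

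Free iron and zinc are toxic in excess and are scarce resources for microbes, so tissues keep both bound and redistribute them during inflammation. Lipocalin-2 takes up bacterial siderophores, haptoglobin binds haemoglobin set free from red cells, and metallothioneins are small cysteine-rich proteins that hold zinc and copper. The transferrin receptor brings iron into cells, the membrane reductase STEAP4 reduces iron and copper, ZIP14 imports zinc and iron, ferroportin exports iron, and haem oxygenase 1 opens the haem ring and frees its iron. The genes for metallothioneins are induced by zinc through MTF1, which binds short metal response elements, and glucocorticoids and cytokines also induce them.

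The 3 metallothionein genes lie in 1 cluster on chromosome 8 (GRCm38), in the order Mt4, Mt3, Mt2 and Mt1 over 43131 bp, all on the plus strand. Their promoters are shown because the RNA of Mt4, although a neighbour, was lower in IMQ keratinocytes, where that of Mt1 and Mt2 was higher. Each sequence runs from 250 bases before to 30 bases after the RefSeq gene start (GRCm38.p6, 280 bases), and capitals mark matches to the metal response element core TGCACNC or its variant TGCGCNC on either strand.
Mt1: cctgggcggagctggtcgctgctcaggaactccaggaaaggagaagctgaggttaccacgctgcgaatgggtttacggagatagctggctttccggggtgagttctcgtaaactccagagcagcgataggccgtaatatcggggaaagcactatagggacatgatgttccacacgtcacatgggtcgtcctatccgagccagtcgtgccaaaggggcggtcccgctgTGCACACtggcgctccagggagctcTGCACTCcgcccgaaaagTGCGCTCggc
Mt2: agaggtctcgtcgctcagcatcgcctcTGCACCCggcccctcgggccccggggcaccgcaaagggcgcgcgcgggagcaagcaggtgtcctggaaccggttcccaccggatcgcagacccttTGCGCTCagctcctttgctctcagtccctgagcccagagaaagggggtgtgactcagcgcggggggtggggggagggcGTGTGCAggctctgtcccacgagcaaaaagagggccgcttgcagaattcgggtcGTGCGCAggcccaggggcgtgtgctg
Mt4: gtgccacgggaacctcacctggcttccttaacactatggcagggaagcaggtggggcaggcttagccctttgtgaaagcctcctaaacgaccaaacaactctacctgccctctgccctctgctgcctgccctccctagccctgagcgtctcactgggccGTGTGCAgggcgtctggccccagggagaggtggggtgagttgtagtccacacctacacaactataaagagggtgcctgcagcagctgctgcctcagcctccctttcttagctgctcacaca
The Mt1 promoter, at chr8:94178839-94179118, held 3 matches, 1 beginning 23 bases before the start and the others 3 and 21 bases after it. The Mt2 promoter, at chr8:94172368-94172647, held 4, beginning 223, 128 and 50 bases before and 5 bases after the start. The GENCODE start of Mt2, at 94172664, lies beyond the end of this window, so all 4 matches come before that start. The Mt4 promoter, at chr8:94136954-94137233, held 1, beginning 91 bases before the start. Of 32851 RefSeq promoters cut to the same length, 24.1% held at least 1 match, 1.73% at least 3 and 0.405% at least 4. RefSeq promoters were found for 6 of the 10 genes. Those of Lcn2 and Steap4 held no match, and of the Tfrc starts 1 had 2 overlapping matches, beginning 53 and 50 bases before it, and the other none. These are letter matches and not measured binding sites. Their places are given from the annotated starts, which were not checked against where transcription begins in skin, for Mt1 as for the others. Matches outside a window were not counted, so the counts of 3, 4 and 1 do not rank the promoters of Mt1, Mt2 and Mt4.

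In the whole IMQ library, Lcn2 stood at 524 CPM (UMIs per 1000000 UMIs of the cells summed) against 12.1 CPM in the control library, and Hp at 196 against 4.15 CPM. The ratios were 43.4 (95% interval 41.2 to 45.7) and 47.2 (43.3 to 51.7), and all intervals here cover counting error only. Steap4 was 7.41-fold and Tfrc 2.21-fold higher in the IMQ library, and Mt4 was 10.1-fold lower. Mt1 was nearly level, at 2547 CPM in the IMQ library and 2473 CPM in the control library, as was Mt2, at 1112 and 1206 CPM. These sums mix what each cell holds with how many cells of each lineage were caught, so the lineages were taken one at a time.

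**Figure D1:**
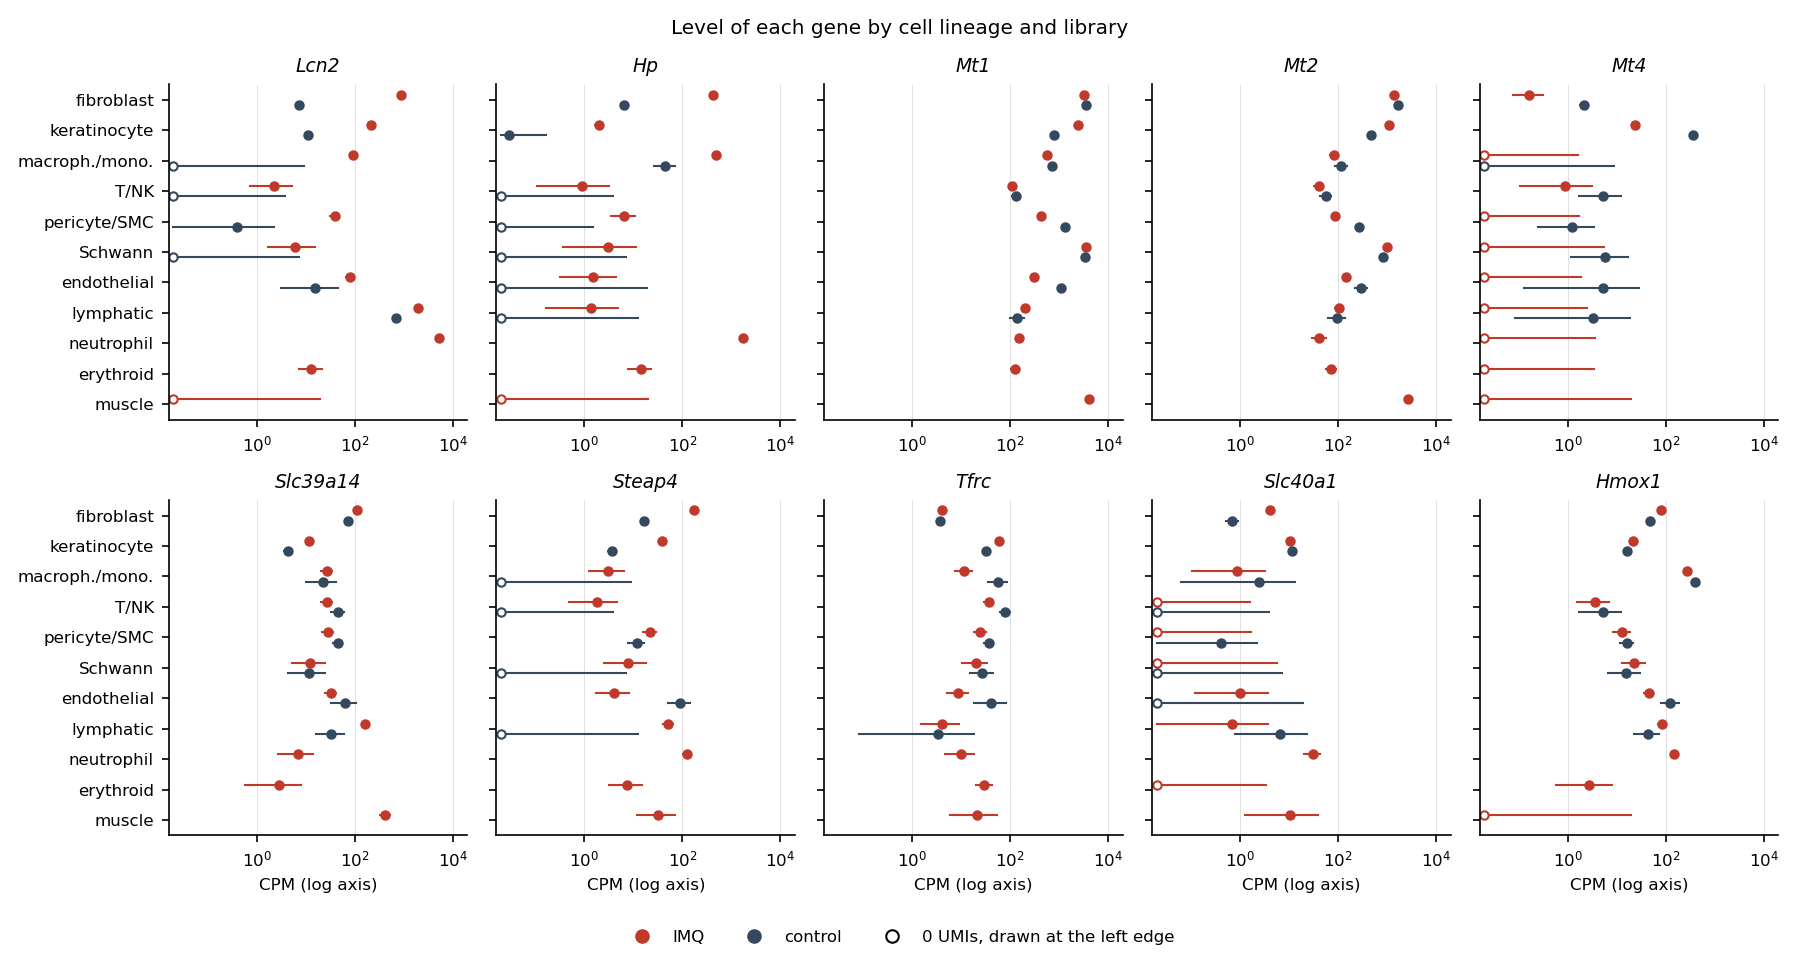
CPM of the 10 genes on a log axis in each lineage, IMQ in red above control in blue, with 95% Poisson intervals; open circles at the left edge mark 0 UMIs. Lcn2 reached 5171 CPM in IMQ neutrophils and 1980.2 CPM in IMQ lymphatic endothelial cells, and Mt4 is seen mainly in keratinocytes.

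Where lineages are put in order below, the order covers those with at least 50 cells in the IMQ library and, in the control library, the 8 compared between libraries. Dendritic and Langerhans, B, mast, basophil and melanocyte gates held fewer, as did control neutrophils (8 cells), erythroid cells (8) and muscle cells (18).

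A gene was counted as higher or lower when the ratio of its CPM was at least 2-fold and the interval excluded equality, among genes with at least 20 UMIs over both libraries. In keratinocytes 6 of the 10 genes were higher in the IMQ library (Lcn2, Hp, Mt1, Mt2, Slc39a14 and Steap4), where 11.9% of all 14102 genes measured there were. Mt4 alone was lower, against 10.6% of all genes. The Hp call in keratinocytes rested on 129 and 1 UMIs, at a level close to what RNA free in the droplets could give. In fibroblasts 4 of 10 were higher (Lcn2, Hp, Steap4 and Slc40a1), against 11.3% of 14799 genes, and 1 was lower (Mt4), against 4.19%. Mt4 in fibroblasts was at the level that RNA free in the droplets could give and is read as background below. In macrophages and monocytes 2 of the 7 genes measured were higher (Lcn2 and Hp), against 6.23% of 7731 genes, and 1 was lower (Tfrc), against 9.74%. The genes had been chosen with earlier results of these data known, so their shares describe them and are no independent evidence.

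The smaller lineages differed among themselves. In pericytes and smooth muscle cells 1 of 7 genes was higher (Lcn2), against 7.70% of all genes measured there, and 2 were lower (Mt1 and Mt2), against 7.50%. Lymphatic endothelial cells had 3 of 6 higher (Lcn2, Slc39a14 and Steap4), against 4.25%, and 0 lower, against 2.12%. Blood endothelial cells had 1 of 7 higher (Lcn2), against 9.69%, and 5 lower (Mt1, Mt2, Steap4, Tfrc and Hmox1), against 7.61%. T and NK cells had 0 of 4 higher, against 7.80%, and 1 lower (Tfrc), against 6.05%. Schwann cells had 0 of 4 in either direction, against 3.47% higher and 2.25% lower. The endothelial control groups were small, at 32 and 37 cells, and were admitted after the data had been seen.

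The median log2 ratio of the measured members was 1.33 in keratinocytes, against 0.03 for all genes there, and 0.70 in fibroblasts, against 0.27. It was -0.37 in macrophages and monocytes, against -0.05. Because the median gene was already shifted by 0.27 in fibroblasts, 0.15 in blood endothelial and 0.14 in lymphatic endothelial cells, small ratios there carry no direction.

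**Figure D2:**
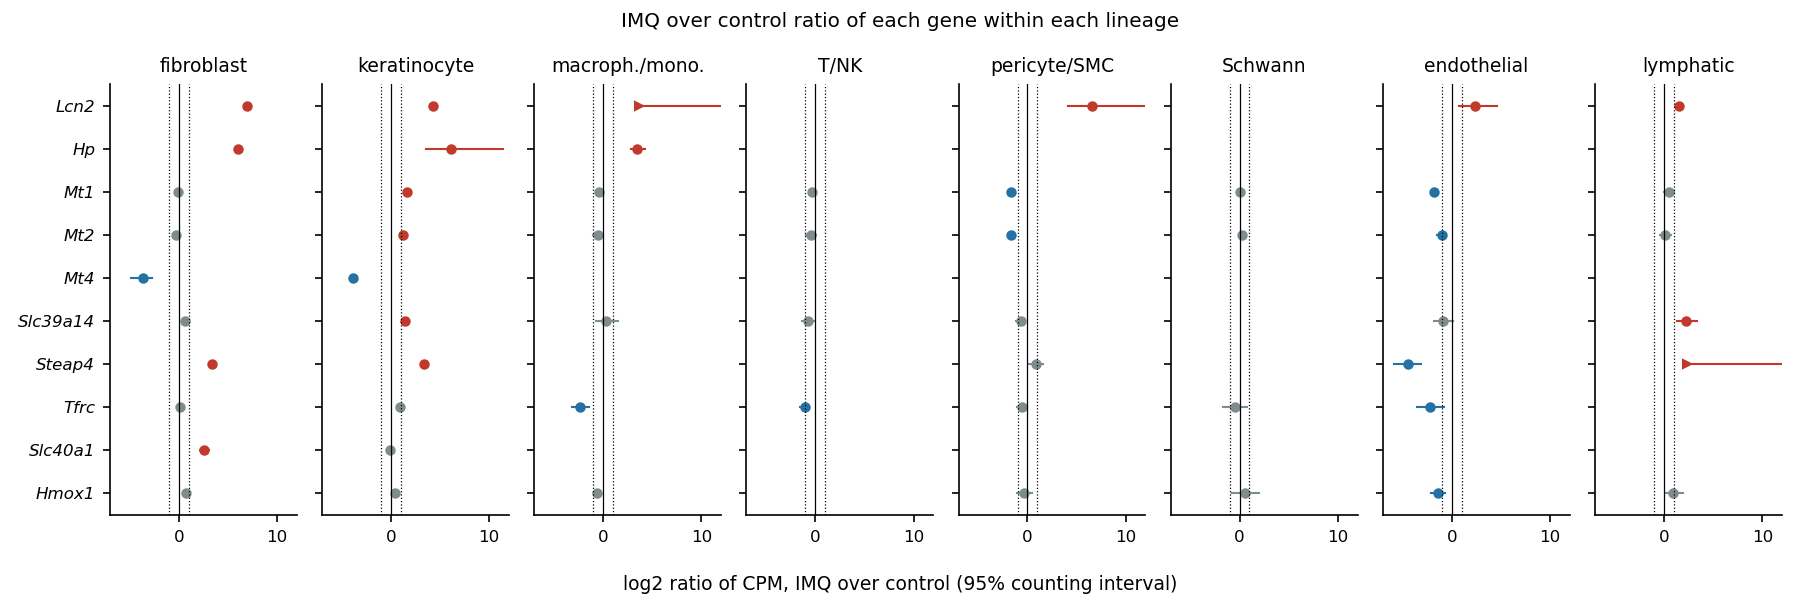
Log2 ratio of CPM, IMQ over control, for the 10 genes in 8 lineages; red points were higher and blue points lower by at least 2-fold with a 95% counting interval (bars) that excluded equality, grey points were neither, triangles are bounds against a control count of 0, and dotted lines mark 2-fold. Mt1 is red in keratinocytes (1.67) and blue in pericytes and smooth muscle cells (-1.65), while Lcn2 is red in the 6 lineages where it was measured.

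Lcn2 (ENSMUSG00000026822, chromosome 2, 32384633 to 32388252, minus strand) encodes lipocalin-2, a secreted antimicrobial protein stored in neutrophil granules and made by inflamed epithelia. In the IMQ library it was highest in neutrophils, at 5171 CPM (5032 to 5313), followed by lymphatic endothelial cells at 1980.2 (1909 to 2054), fibroblasts at 875 (867 to 883) and keratinocytes at 219 (215 to 222). None of these intervals overlapped. Macrophages and monocytes at 91.5 CPM (79.5 to 105) and blood endothelial cells at 79.1 (67.1 to 92.5) could not be placed in order, and pericytes and smooth muscle cells stood below both at 39.1 (31.1 to 48.3). Erythroid cells had 13.1, Schwann cells 6.15 and T and NK cells 2.22 CPM. Each was lower than the level that RNA free in the droplets could give, which markers of other lineages put at 19.7, 11.1 and 7.75 CPM. Muscle cells, with a median of 3235 UMIs, had 0 Lcn2 UMIs in 55 cells, which at 3 counts allows a share of cells with a UMI of up to 5.45%.

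Fibroblasts held 63.9% of all Lcn2 UMIs of the IMQ library, keratinocytes 19.3% and neutrophils 7.06%, neutrophils having 0.715% of the library's UMIs. Of the 8 lineages ranked in the control library, lymphatic endothelial cells led at 706 CPM (615 to 808), and blood endothelial cells at 15.5 (3.21 to 45.4), keratinocytes at 11.1 (10.0 to 12.3) and fibroblasts at 7.35 (6.75 to 8.0) followed far below. Pericytes had 1 UMI, and macrophages, T and NK cells and Schwann cells had none. Outside that order, the 8 control neutrophils held 14 Lcn2 UMIs, or 889.5 CPM (486 to 1492), which overlaps lymphatic endothelial cells.

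In fibroblasts Lcn2 was 119-fold higher in the IMQ library (109 to 130), and 53.3% of IMQ fibroblasts (51.7 to 54.9) had a UMI, against 1.58% of control fibroblasts (1.30 to 1.90). After each cell was thinned to 2000 UMIs the shares were 35.0% and 0.489%. T and NK cells, which should lack the gene, had a thinned share of 0.862% in the IMQ library and 0% in the control library, with median depths of 4665 and 3538.5 UMIs against 13359 and 9488 UMIs in fibroblasts. The gain was spread unevenly over fibroblast subtypes. Pi16 fibroblasts, which lie in the reticular dermis and fascia, stood at 985 CPM in the IMQ library and 1.10 CPM in the control library, a ratio of 899.6 (699 to 1179). Papillary fibroblasts, beneath the epidermis, stood at 207 and 71.4 CPM, a ratio of 2.90 (2.56 to 3.30), and without the top cell of each library at 154 and 65.8 CPM. They held 372 of the 543 Lcn2 UMIs in control fibroblasts. Gdf10, Coch and Thbs4 Cilp fibroblasts had 0 UMIs in the control library, so their levels of 277, 284 and 483 CPM were at least 70.1-fold, 51.2-fold and 110.1-fold higher, taking 3 counts as the floor of the control group.

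In keratinocytes Lcn2 was 19.7-fold higher (17.8 to 21.9), with 53.8% of IMQ and 3.10% of control cells holding a UMI. Suprabasal cells stood at 57.6 CPM in the IMQ library and 0.731 CPM in the control library (78.8-fold higher, 44.8 to 153), but 1 control cell held 7 of their 12 control UMIs, and without the top cell of each library the ratio was 180.4. Upper follicle cells stood at 319 and 14.1 CPM, and 1 control cell held 42 of their 55 control UMIs; the ratio of 22.7 became 92.4 without the top cell of each library. Basal cells stood at 255 and 21.5 CPM (11.8-fold higher, 10.6 to 13.3). Follicle stem cells showed no difference that could be seen, at 42.3 and 45.0 CPM, and all 14 of their control UMIs came from 1 of 27 cells.

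Lymphatic endothelial cells were the lineage in which Lcn2 was already abundant. A UMI was found in 83.1% of IMQ cells (75.7 to 89.0) and 89.2% of control cells (74.6 to 97.0), and the level was 2.80-fold higher in the IMQ library (2.44 to 3.24). The summed level of the 8 neutrophil markers in these cells was 32.2 CPM in the IMQ library and 46.4 CPM in the control library, with 4 and 6 of them at 0. Macrophages and monocytes had 207 UMIs in the IMQ library and 0 in the 83 control cells, at least 12.5-fold higher; 190 of the 207 came from cells without C1q. Blood endothelial cells had 155 and 3 UMIs (5.08-fold higher, 1.71 to 24.9), and without the top cell of each library the ratio was 11.4. Pericytes and smooth muscle cells had 84 and 1 UMIs (96.7-fold higher, 16.9 to 3866), in 5.98% of IMQ cells. The fibroblast markers in the pericyte gate summed to 2562 CPM in the IMQ library and 1950 CPM in the control library, with 1 and 0 of 10 at 0, and whether cells of a second type contributed was not tested. The calls in pericytes and in blood endothelial cells ended when cells were thinned, since fewer than 20 UMIs remained.

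Hp (ENSMUSG00000031722, chromosome 8, 109575128 to 109579172, minus strand) encodes haptoglobin, the plasma protein that captures free haemoglobin and is also made by adipocytes and granulocyte precursors. In the IMQ library it was highest in neutrophils at 1696 CPM (1617 to 1779), ahead of macrophages and monocytes at 492 (463 to 522) and fibroblasts at 424 (418 to 429), and none of these intervals overlapped. All other lineages were at 14.0 CPM or below. Keratinocytes, at 1.98 CPM, were at 1.39 times the free RNA estimate of 1.42 CPM, and their 129 and 1 UMIs gave a ratio of 68.2 (12 to 2716) whose call ended when cells were thinned. Only macrophages and fibroblasts had more than 1 Hp UMI among the control lineages of at least 30 cells.

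Hp in fibroblasts was the property of few cells. In the IMQ library 15.8% of fibroblasts (14.6 to 17) had a UMI, and the 172 cells with at least 20 UMIs, 4.57% of the lineage, held 91.9% of all Hp UMIs. Of these 172 cells, 161 were Pi16 fibroblasts. The 68 cells with at least 100 UMIs held 69.4%. In the control library 0.212% of fibroblasts had a UMI, and 1 cell held 446 of the 470 UMIs. That cell also held 42 UMIs of Adipoq, 28 of Cidec, 21 of Plin1, 312 of Fabp4 and 751 of Cfd, all genes of fat cells, while the other 7080 control fibroblasts together held 23 of Adipoq, 0 of Cidec and 6 of Cfd.

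The ratio in fibroblasts was 66.6 (60.8 to 73.1), a log2 ratio of 6.06, and without that control cell the log2 ratio was 10.35. Among cells below every gate in the IMQ library, 1 cell held 1150 of 1205 Hp UMIs, with 99 UMIs of Adipoq, 109 of Cidec, 30 of Plin1 and 193 of Retn. Cells of the fibroblast gate with at least 20 Hp UMIs numbered 172 in the IMQ library and 1 in the control library. The 1 control cell is the one with genes of fat cells, and counts of those genes in the 172 IMQ cells are not given here. By subtype, Hp stood at 542 CPM in Pi16 fibroblasts of the IMQ library and 8.38 CPM in those of the control library (459 UMIs, 446 of them in that control cell). Without the top cell of each library these were 524 and 0.237 CPM. In papillary fibroblasts it stood at 89.5 and 0.768 CPM (116-fold higher, 45.0 to 430.4), and in Gdf10 fibroblasts at 41.8 and 3.94 CPM from 115 and 3 UMIs. Coch and Thbs4 Cilp fibroblasts had 5 and 11 UMIs in the IMQ library and 0 in the control library, too few to set a ratio.

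**Figure D3:**
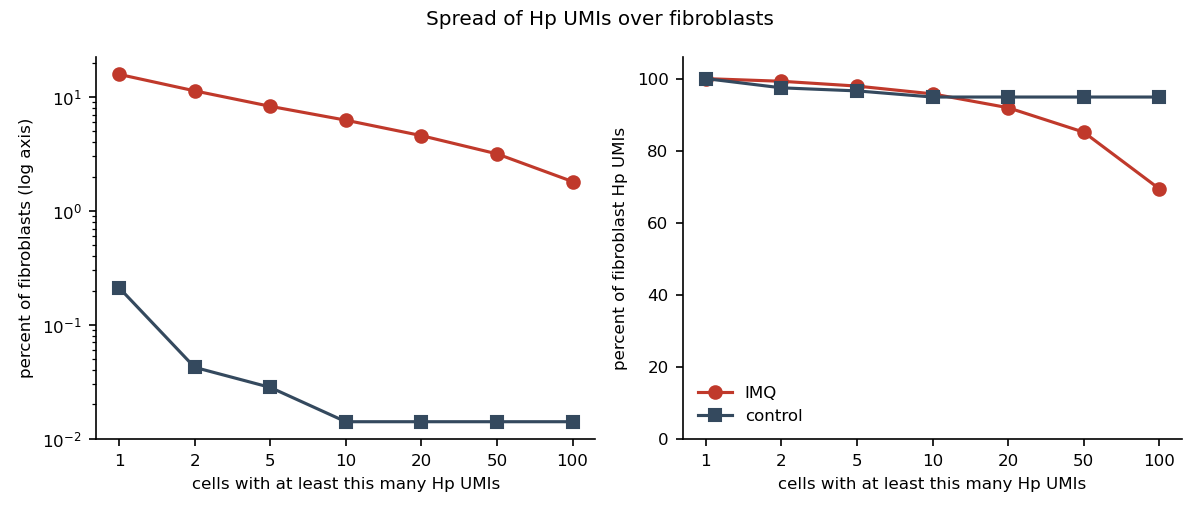
Left, the percent of fibroblasts (log axis) that hold at least the number of Hp UMIs on the x axis; right, the percent of all fibroblast Hp UMIs that those cells hold, IMQ in red and control in blue. At 20 UMIs the IMQ curve stands at 4.57% of cells and 91.9% of UMIs, and the control curve rests on 1 cell with 94.9% of UMIs.

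In macrophages and monocytes Hp was 11.1-fold higher in the IMQ library (7.02 to 18.9), in 51.7% of IMQ cells and 6.02% of control cells. Nearly all of it lay in cells without C1q, a group that includes recently recruited monocytes. These stood at 797 CPM (750.2 to 846) in the IMQ library and 127 CPM (75.5 to 201) in the control library, a ratio of 6.26 (3.94 to 10.6). The C1q-positive macrophages, which include residents of the dermis, had 13 UMIs (15.4 CPM) in 100 IMQ cells and 0 in 57 control cells. The 8 neutrophil markers summed to 409 CPM in IMQ and 282 CPM in control macrophages and monocytes, with 1 and 3 of them at 0, and their part in the result was not tested.

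Lcn2 was detected in a larger share of the IMQ fibroblasts with Hp than of those without, with intervals that did not overlap. After thinning to 2000 UMIs, 61.1% of the 319 fibroblasts with Hp also had Lcn2 (55.5 to 66.5), against 32.5% of the other 3306 (30.9 to 34.1). Saa3, an acute-phase gene, was found in 83.4% of fibroblasts with Hp and 41.2% of those without, and in 76.8% of fibroblasts with Lcn2 and 27.8% of those without. Steap4 was found in 32.4% of fibroblasts with Lcn2 and 20.2% of those without, and Mt2 in 84.1% and 66.3%. With Hp in place of Lcn2 the Steap4 shares overlapped, at 28.2% of fibroblasts with Hp (23.3 to 33.5) and 24.1% of those without (22.6 to 25.6). In IMQ keratinocytes Steap4 was found in 8.76% of cells with Lcn2 and 8.84% of those without, which also overlapped. Hmox1 was found in 12.3% of fibroblasts with Lcn2 (10.5 to 14.2) and 13.2% of those without (11.9 to 14.6). The fibroblast shares pool all subtypes. Before thinning, 455 of the 593 IMQ fibroblasts with Hp were Pi16 fibroblasts, as were 2535 of all 3761. Thinned shares with Lcn2 were 39.8% in IMQ Pi16 fibroblasts and 14.3% to 28.9% in the other IMQ fibroblasts by subtype. The part of subtype makeup in these pairings was not tested. The cells of 1 library are not replicates, and these shares describe that library.

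**Figure D4:**
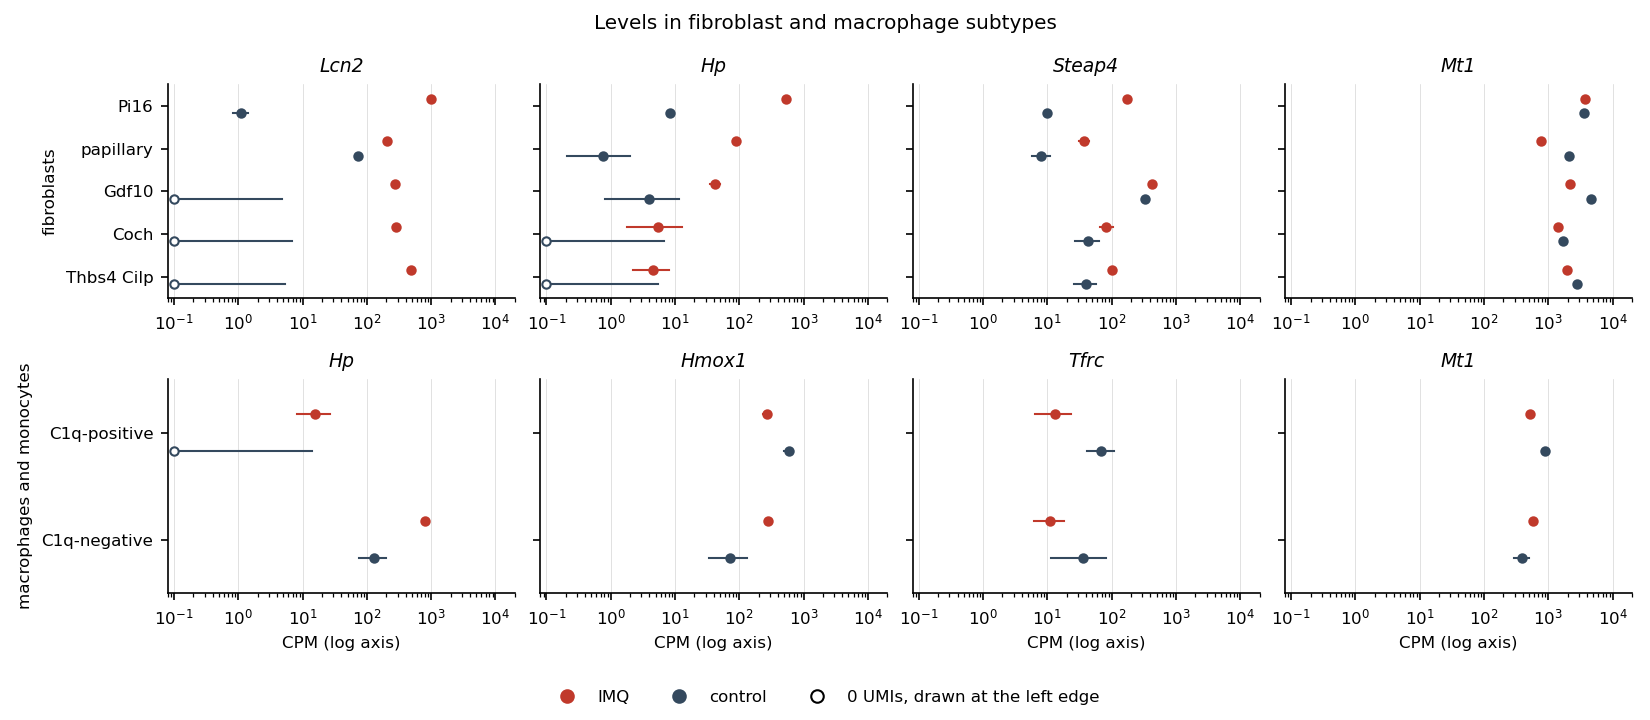
CPM (log axis) of Lcn2, Hp, Steap4 and Mt1 in 5 fibroblast subtypes, and of Hp, Hmox1, Tfrc and Mt1 in macrophages and monocytes with and without C1q, IMQ in red and control in blue, with 95% Poisson intervals. Lcn2 in Pi16 fibroblasts stands at 985 against 1.10 CPM, Steap4 in Gdf10 fibroblasts at 422 against 331 CPM, and Hmox1 is lower in C1q-positive (266 against 589.7 CPM) and higher in C1q-negative cells (278 against 70.7 CPM) of the IMQ library.

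Mt1 (ENSMUSG00000031765, chromosome 8, 94179082 to 94180327, plus strand) and Mt2 (ENSMUSG00000031762, chromosome 8, 94172664 to 94173568, plus strand) encode the widely expressed metallothioneins. They were higher in keratinocytes of the IMQ library and lower in its pericytes, smooth muscle cells and blood endothelial cells. In keratinocytes Mt1 stood at 2455 CPM in the IMQ library and 772 CPM in the control library, a ratio of 3.18 (3.14 to 3.22), and Mt2 at 1105 and 476 CPM, a ratio of 2.32 (2.28 to 2.36). In pericytes and smooth muscle cells Mt1 stood at 427 CPM in the IMQ library and 1339 CPM in the control library, 3.14-fold lower (2.92 to 3.38), and Mt2 at 87.4 and 269 CPM, 3.08-fold lower (2.61 to 3.64). Blood endothelial cells had the same direction as pericytes, with Mt1 at 312 and 1104 CPM (3.54-fold lower, 3.02 to 4.15) and Mt2 at 146 and 301 CPM (2.06-fold lower, 1.53 to 2.74). Lymphatic endothelial cells did not pass the rule, with Mt1 at 199 and 139 CPM, a ratio of 1.43 (1.03 to 2.03), and Mt2 at 105.4 and 96.2 CPM, a ratio of 1.10 (0.733 to 1.69). Free RNA could give them 1.12% of the IMQ library's 2547 CPM of Mt1 and 2.99% of the control library's 2473 CPM. That is a larger part of their control level, and these ratios were not corrected for it.

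Where cells were classed by cluster in place of gates, Mt2 no longer passed the 2-fold rule in pericytes (log2 ratio -0.81) or blood endothelial cells (-0.53). The endothelial markers in the pericyte gate summed to 361 CPM in the IMQ library and 88.8 CPM in the control library, with 1 and 5 of 10 at 0, and their part in the Mt1 and Mt2 result was not tested. Of 8 listed genes of the glucocorticoid response, which include the receptor gene Nr3c1, pericytes had 1 higher (Fkbp5) and 3 lower (Per1, Zbtb16 and Sgk1). The shares of all genes there were 7.70% and 7.50%. Keratinocytes, where Mt1 and Mt2 were higher, had 0 of the 8 higher or lower, with a median log2 ratio of -0.44. In pericytes and smooth muscle cells Per1, a clock gene, was 2.43-fold and Sgk1, a kinase, 2.32-fold lower.

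Fibroblasts as a whole were close to level, with Mt1 at 3278 and 3461 CPM and Mt2 at 1412 and 1666 CPM in the IMQ and control libraries. Their subtypes were not. In Pi16 fibroblasts Mt1 had a ratio of 1.06 and Mt2 of 0.921. In papillary fibroblasts Mt1 stood at 765 and 2097 CPM (2.74-fold lower, 2.63 to 2.86) and Mt2 at 295 and 623 CPM (2.11-fold lower), and in Gdf10 fibroblasts Mt1 stood at 2147 and 4694 CPM (2.19-fold lower) and Mt2 at 678 and 1580.4 CPM (2.33-fold lower). Schwann cells were near level at 3492 and 3397 CPM for Mt1, a ratio of 1.03 (0.965 to 1.09). Macrophages and monocytes did not pass the rule, with Mt1 at 557 and 718 CPM and Mt2 at 81.8 and 118 CPM.

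In the IMQ library Mt1 was highest in muscle cells at 4095 CPM (3809 to 4397), then in Schwann cells at 3492 (3349.5 to 3638) and fibroblasts at 3278 (3263 to 3294), then in keratinocytes at 2455 (2443 to 2467), and the intervals of these neighbours did not overlap. Macrophages at 557 (526 to 588), pericytes at 427 (399.6 to 455), blood endothelial cells at 312 (287 to 337) and lymphatic endothelial cells at 199 (177 to 223) came next in that order. Neutrophils at 155 (132 to 182), erythroid cells at 126 and T and NK cells at 109 CPM came last of the lineages ranked, and the intervals of neighbours from lymphatic endothelial cells downward overlapped. For Mt2 the order was muscle cells at 2669 CPM, fibroblasts at 1412, keratinocytes at 1105 (1097 to 1113), Schwann cells at 1003 (927 to 1083) and, far lower, blood endothelial cells at 146. Among gates too small to rank, the 33 IMQ melanocytes stood at 3343 CPM of Mt1 (3195 to 3496) and 1287 CPM of Mt2 (1196 to 1383), and the 40 IMQ basophils at 88.1 CPM of Mt1 (50.4 to 143). In the control library fibroblasts at 3461 and Schwann cells at 3397 (3240.2 to 3560.3) overlapped at the top, and keratinocytes stood at 772, below pericytes at 1339 and blood endothelial cells at 1104 (961 to 1263).

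Within keratinocytes every subtype had more Mt1 in the IMQ library, and the excess within a subtype was smaller than in the lineage as a whole. Mt1 stood at 3083 and 1274 CPM in basal cells (2.42-fold higher), 1047 and 426 CPM in upper follicle cells (2.46), 4012 and 1984 CPM in follicle stem cells (2.02), and 754 and 407 CPM in suprabasal cells (1.85, which misses the 2-fold rule). Mt2 was 1.59-fold higher in basal, 2.16-fold in upper follicle, 1.57-fold in follicle stem and 1.44-fold in suprabasal cells. Basal and follicle stem cells, which hold the most Mt1 in either library, were 1192 and 204 of the 2108 IMQ keratinocytes and 625 and 27 of the 1546 control keratinocytes. When each subtype was given the same weight, the log2 ratio of Mt2 in keratinocytes was 0.68 and its call ended.

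The share of Mt1 among the UMIs of both genes also differed. It was 67.7% in IMQ basal keratinocytes (67.5 to 67.9) and 57.9% in control basal keratinocytes (57.3 to 58.5), so within these cells Mt1 differed more than Mt2. In pericytes the share was 83.0% and 83.3%, with intervals that overlapped, and in macrophages 87.2% and 85.9%, likewise overlapping.

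Mt4 (ENSMUSG00000031757, chromosome 8, 94137197 to 94139031, plus strand) encodes the metallothionein of stratified epithelia, where it marks differentiating cells. It was lower in the IMQ library. Keratinocytes held 97.1% of its UMIs in the IMQ library and 87.0% in the control library. In keratinocytes it stood at 24.4 CPM (23.2 to 25.6) in the IMQ library and 359.7 CPM (353 to 366) in the control library, 14.8-fold lower (14.0 to 15.6), and 7.35% and 37.7% of cells had a UMI. Thinned shares were 2.28% and 21.4%.

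The makeup of the keratinocyte gate differed too. Suprabasal cells were 325 of 2108 IMQ keratinocytes and 590 of 1546 control keratinocytes. Within suprabasal cells Mt4 stood at 109 and 708 CPM, 6.48-fold lower (6.10 to 6.89), in 25.2% and 73.7% of cells, and 1 IMQ cell held 211 of the 1167 UMIs. Basal cells stood at 7.05 and 56.3 CPM, 7.99-fold lower (6.97 to 9.18). Upper follicle cells went the other way, with 9.22 and 3.33 CPM from 90 and 13 UMIs, a ratio of 2.77; 1 IMQ cell held 42 of the 90, and without the top cell of each library the ratio was 2.13. In fibroblasts the 9 and 157 UMIs gave 0.166 and 2.13 CPM, at the 0.161 and 2.47 CPM estimated for free RNA, and are read as background. The other lineages in the plot of levels had between 0 and 5 Mt4 UMIs in either library.

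**Figure D5:**
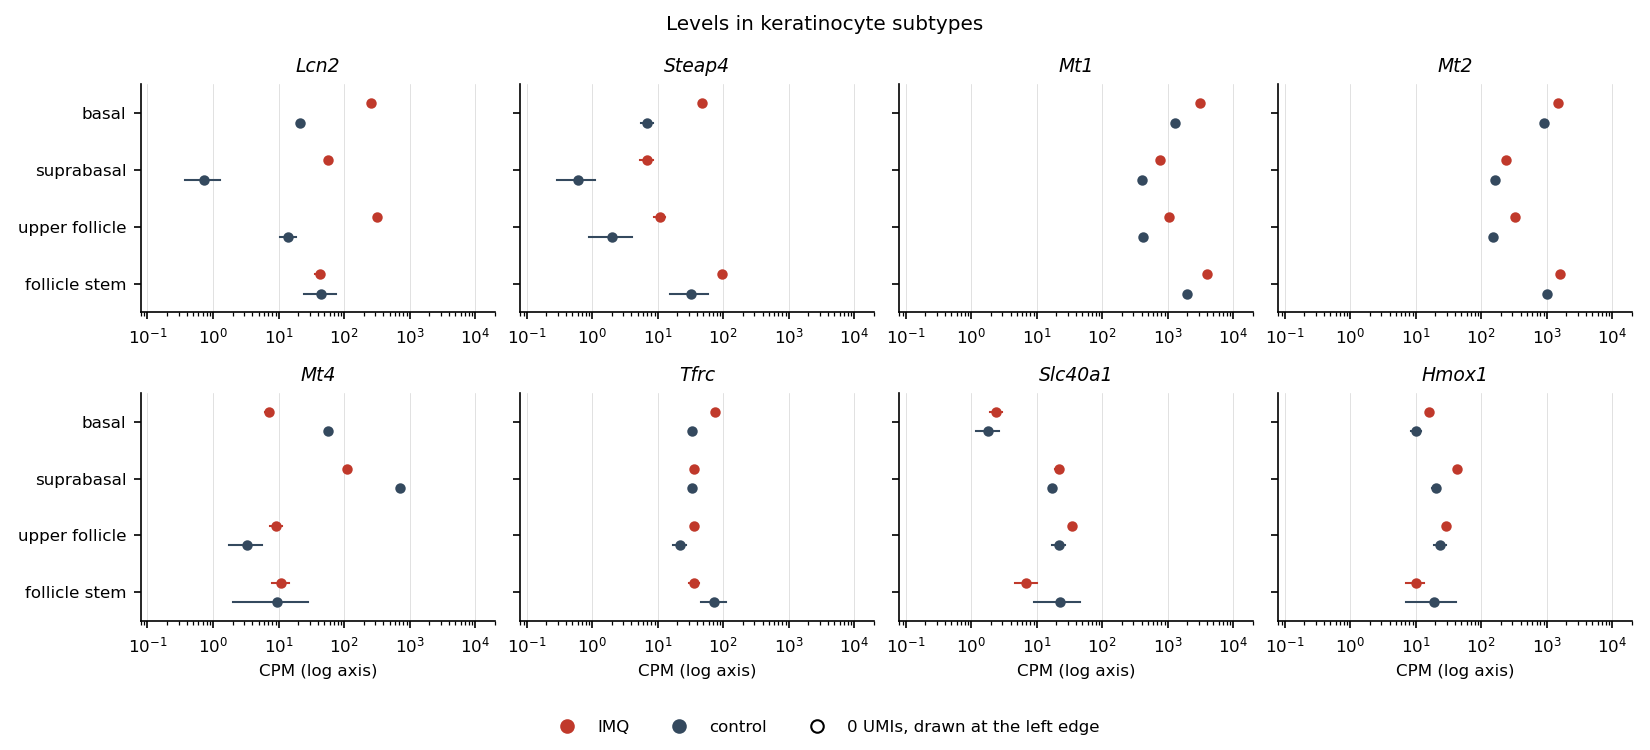
CPM (log axis) of 8 of the genes in 4 keratinocyte subtypes, IMQ in red and control in blue, with 95% Poisson intervals. Mt4 in suprabasal cells stands at 109 against 708 CPM and Mt1 in basal cells at 3083 against 1274 CPM, and Tfrc is higher in basal cells (74.2 against 33.2 CPM) and near level in suprabasal cells (36.2 against 33.4 CPM).

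Slc39a14 (ENSMUSG00000022094, chromosome 14, 70303469 to 70351425, minus strand) encodes ZIP14, which brings zinc, manganese and iron not bound to transferrin into cells. Its clearest difference was in lymphatic endothelial cells, with 160.1 CPM (140.3 to 182) in the IMQ library and 33.2 CPM (15.9 to 61.0) in the control library, from 234 and 10 UMIs, a ratio of 4.83 (2.58 to 10.2). After thinning the log2 ratio was 1.13 and too few UMIs remained for a call. Keratinocytes stood at 11.9 and 4.35 CPM, a ratio of 2.73 (2.29 to 3.27). That call ended under cluster classes (log2 ratio 0.85), equal weight for subtypes (0.79) and thinning (0.44). In fibroblasts the gene stood at 112 and 71.6 CPM, a ratio of 1.57 (1.51 to 1.63), short of the 2-fold rule, and no fibroblast subtype passed it.

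In the IMQ library Slc39a14 was highest in muscle cells at 419.7 CPM (332 to 524), then in lymphatic endothelial cells, then in fibroblasts at 112 (109 to 115). Blood endothelial cells at 32.6, pericytes at 28.4, macrophages at 27.0 and T and NK cells at 26.7 CPM had overlapping intervals. Of the 8 lineages ranked in the control library, fibroblasts were highest at 71.6 (69.7 to 73.6) and overlapped with blood endothelial cells at 62.2 (32.1 to 109), which rested on 12 UMIs. The 18 control muscle cells, too few to rank, stood above them at 193.6 CPM (117 to 302) from 19 UMIs.

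Steap4 (ENSMUSG00000012428, chromosome 5, 7960457 to 7982213, plus strand) encodes a metalloreductase that is induced in fat cells and epithelia by inflammatory cytokines. It was higher in the IMQ library in both main lineages and by nearly the same ratio. Fibroblasts stood at 171 and 16.4 CPM (10.5-fold higher, 9.85 to 11.1), in 58.0% and 9.41% of cells, and keratinocytes at 38.0 and 3.65 CPM (10.4-fold higher, 8.69 to 12.5), in 44.0% and 5.30% of cells. T and NK cells, which should lack it, had a UMI in 0.733% of IMQ and 0% of control cells. Thinned shares were 24.4% and 3.8% in fibroblasts and 8.83% and 0.784% in keratinocytes.

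Among fibroblasts the subtype with the most Steap4 differed least. Gdf10 fibroblasts stood at 422 CPM (399 to 448) in the IMQ library and 331 CPM (292 to 375) in the control library, a ratio of 1.28 (1.11 to 1.47). Pi16 fibroblasts stood at 173 and 9.86 CPM, 17.5-fold higher (16.1 to 19.2), papillary fibroblasts at 37.3 and 8.06 CPM, 4.62-fold higher, and Thbs4 Cilp fibroblasts at 102 and 39.5 CPM, 2.59-fold higher. The log2 ratio over fibroblasts was 3.39, and 0.92 with each subtype given the same weight, which ended the call. In keratinocytes Steap4 was highest in follicle stem cells, at 95.2 and 32.1 CPM (2.97-fold higher, 1.60 to 6.23), and most different in suprabasal cells, at 6.83 and 0.609 CPM (11.2-fold higher, 5.76 to 24.4).

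By lineage, IMQ fibroblasts were followed by neutrophils at 124 CPM (103 to 147), lymphatic endothelial cells at 52.0 (41.0 to 65.1) and keratinocytes at 38.0 (36.5 to 39.5), with muscle cells at 32.3 (11.8 to 70.3) overlapping the last 2. Lymphatic endothelial cells had 76 UMIs in the IMQ library and 0 in the 37 control cells, at least 5.23-fold higher, a call that ended when cells were thinned. Blood endothelial cells had 8 UMIs in the IMQ library and 17 in the control library (21.6-fold lower), but 14 of the 17 came from 1 cell, and the ratio was 0.126 without the top cell of each library and could not be called after thinning. Pericytes were at 21.9 and 11.7 CPM, a ratio of 1.87 (1.15 to 3.08), short of the rule.

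Tfrc (ENSMUSG00000022797, chromosome 16, 32608920 to 32632794, plus strand) encodes the transferrin receptor, the main route of iron into dividing cells, whose RNA is stabilised when iron is low. Its level in the whole library was 2.21-fold higher with IMQ, and keratinocytes held 84.0% of its UMIs in the IMQ library and 61.7% in the control library. Within keratinocytes the ratio was 1.85 (1.73 to 1.98), from 59.8 and 32.3 CPM. Basal cells passed the 2-fold rule, at 74.2 and 33.2 CPM (2.24-fold higher, 2.03 to 2.48), and suprabasal cells did not, at 36.2 and 33.4 CPM (1.08, 0.948 to 1.24). Follicle stem cells had 36.1 and 73.9 CPM from 151 and 23 UMIs (2.04-fold lower, 1.26 to 3.18), but 1 control cell held 6 of the 23 UMIs, and without the top cell of each library they were 1.73-fold lower and no longer passed the rule. Basal cells had 5 of the 10 genes higher (Lcn2, Hp, Mt1, Steap4 and Tfrc), against 8.36% of all genes there, and 1 lower (Mt4), against 8.91%. Of these, Hp rested on 66 and 0 UMIs, and its 1.63 CPM in the IMQ library was close to the free RNA estimate given above for keratinocytes.

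Tfrc was lower in the IMQ library in 2 leukocyte gates. Macrophages and monocytes had 11.5 and 56.4 CPM from 26 and 23 UMIs (4.90-fold lower, 2.67 to 8.94), and T and NK cells had 36.9 and 78.5 CPM from 83 and 75 UMIs (2.13-fold lower, 1.54 to 2.94). Both calls rest on few UMIs. That in macrophages could not be made after thinning, where the log2 ratio was -2.02, and that in T and NK cells ended under cluster classes (-0.79), mean CPM per cell (-0.92) and thinning (-0.92). C1q-positive macrophages, with 11 and 18 UMIs, were 5.28-fold lower, and C1q-negative cells, with 15 and 5 UMIs, had a ratio of 0.314 (0.108 to 1.10), which was not called. Dendritic and Langerhans cells, with 11 and 1 UMIs in 26 and 20 cells (39.5 and 4.27 CPM), had too few UMIs to be measured. Blood endothelial cells were 4.78-fold lower (1.79 to 11.7), from 17 and 8 UMIs, a call that also ended on thinning.

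In the IMQ library Tfrc ran from keratinocytes at 59.8 CPM (57.9 to 61.7) to T and NK cells at 36.9 (29.4 to 45.7) and erythroid cells at 29.9 (20.4 to 42.2), with the last 2 overlapping. Pericytes at 24.6, muscle cells at 21.5 and Schwann cells (10.6 to 34.2) overlapped with erythroid cells and with each other. In the control library T and NK cells at 78.5 (61.7 to 98.4), macrophages at 56.4 (35.7 to 84.6), blood endothelial cells at 41.5 (17.9 to 81.7) and pericytes at 37.1 (29.9 to 45.5) formed an overlapping series, with keratinocytes at 32.3 just below pericytes and overlapping them. Fibroblasts were low in both libraries, at 4.10 and 3.64 CPM, and their ratio of 1.13 (0.939 to 1.35) falls below 1 when set against the median gene, so no direction is given.

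Slc40a1 (ENSMUSG00000025993, chromosome 1, 45908068 to 45926523, minus strand) encodes ferroportin, the known cellular iron exporter and the target of hepcidin. Iron-recycling macrophages are its classical site, yet the macrophage gate held 2 UMIs in the IMQ library and 1 in the control library. In these skin cells it was mostly a keratinocyte transcript. Keratinocytes held 69.8% of its UMIs in the IMQ library and 82.4% in the control library, at 10.8 CPM (10.0 to 11.6) and 11.7 CPM (10.6 to 12.9), a ratio of 0.923 (0.816 to 1.05). Upper follicle cells had 35.1 and 21.8 CPM (1.61-fold higher, 1.27 to 2.07), suprabasal cells 22.0 and 17.5 CPM, and basal cells 2.42 and 1.81 CPM. Follicle stem cells had 6.94 and 22.5 CPM from 29 and 7 UMIs (3.24-fold lower, 1.2 to 7.56).

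Fibroblasts had a low level that was higher in the IMQ library, at 4.16 CPM (3.63 to 4.74) against 0.690 CPM (0.514 to 0.908), from 225 and 51 UMIs, a ratio of 6.03 (4.43 to 8.33). A UMI was found in 4.49% of IMQ fibroblasts and 0.621% of control fibroblasts, while T and NK cells had 0 UMIs in both libraries. The free RNA estimates for fibroblasts were 0.0993 and 0.0848 CPM. Among the IMQ lineages ranked, neutrophils stood highest at 30.7 CPM (20.8 to 43.5), from 31 UMIs, ahead of keratinocytes and fibroblasts, and muscle cells had 2 UMIs.

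Hmox1 (ENSMUSG00000005413, chromosome 8, 75093621 to 75100589, plus strand) encodes haem oxygenase 1, which turns haem into biliverdin, carbon monoxide and free iron and is induced by haem and oxidants. It was highest in macrophages and monocytes in both libraries, at 272 CPM (250.5 to 294) in the IMQ library and 402 CPM (343 to 468) in the control library, a ratio of 0.676 (0.568 to 0.808). The groups with and without C1q differed in opposite directions. C1q-positive cells stood at 266 and 589.7 CPM, 2.22-fold lower in the IMQ library (1.80 to 2.73). C1q-negative cells stood at 278 and 70.7 CPM, 3.92-fold higher (2.11 to 8.25), on 10 control UMIs of which 5 were in 1 cell, and with 76 of 375 IMQ UMIs in 1 cell; the ratio was 6.04 without these cells. The difference between the groups was not tested.

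The C1q-positive group had 100 and 57 cells and the C1q-negative group 242 and 23, so the level of the whole gate mixes both. Of the 5 genes measured in C1q-positive cells, 0 were higher, against 8.56% of all genes, and 2 were lower (Tfrc and Hmox1), against 10.4%. Of the 7 measured in C1q-negative cells, 3 were higher (Lcn2, Hp and Hmox1), against 7.15%, and 0 lower, against 4.69%.

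IMQ neutrophils held 149 CPM of Hmox1 (126 to 175), below macrophages. Lymphatic endothelial cells at 82.8 (68.7 to 98.9) and fibroblasts at 80.8 (78.4 to 83.2) overlapped, and blood endothelial cells were at 45.9 (36.9 to 56.4). Schwann cells at 23.1 (12.9 to 38.1) and keratinocytes at 22.2 (21.0 to 23.3) overlapped below them, and pericytes were at 13.0. In the control library macrophages were followed by blood endothelial cells at 124 (79.7 to 185), then by fibroblasts at 48.1 and lymphatic endothelial cells at 43.1 (23.0 to 73.7), which overlapped. Fibroblasts were 1.68-fold higher in the IMQ library (1.61 to 1.76; 80.8 and 48.1 CPM), short of the rule, while papillary fibroblasts passed it at 60.5 and 17.1 CPM (3.54-fold higher, 2.75 to 4.6). In papillary fibroblasts 4 of 8 genes measured were higher, against 10.8% of all genes, and 2 were lower, against 4.03%. Suprabasal keratinocytes stood at 43.4 and 20.2 CPM (2.15-fold higher, 1.87 to 2.49), though 1.91-fold without the top cell of each library, which ended the call, and keratinocytes as a whole at 22.2 and 16.5 CPM, a ratio of 1.34. Blood endothelial cells were 2.71-fold lower (1.65 to 4.29), from 90 and 24 UMIs; that call ended on thinning.

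Counted by subtype, Pi16 fibroblasts had 4 of 10 genes higher, against 10.3% of all genes there, and 1 lower, against 5.12%. Gdf10 fibroblasts had 2 of 7 higher (Lcn2 and Hp), against 9.54%, and 2 lower (Mt1 and Mt2), against 3.46%. Thbs4 Cilp fibroblasts had 2 of 6 higher (Lcn2 and Steap4), against 5.19%, and 0 lower, against 3.61%, and Coch fibroblasts 1 of 7 higher (Lcn2), against 8.23%, and 0 lower, against 4.16%. Fibroblasts of no subtype had 5 of 10 higher, against 14.7%, and 1 lower, against 4.01%. The 1 lower gene in Pi16 fibroblasts and in those of no subtype was Mt4, which is read as background in fibroblasts. Among keratinocytes, upper follicle keratinocytes had the most genes higher in the IMQ library, 7 of 10, against 8.31% of all genes there, and 0 lower, against 13.4%. Some of the 7 rested on few UMIs or on 1 cell. Hp had 35 and 1 UMIs, with 13 of the 35 in 1 cell, and Slc39a14 had 51 and 7. Mt4 had 90 and 13, with 42 of the 90 in 1 cell. Suprabasal cells had 3 of 9 higher, against 7.97%, and 1 lower, against 16.0%. Follicle stem cells had 2 of 9 in each direction, against 3.17% higher and 3.21% lower.

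Other genes of metal and haem handling were counted by the same rule. Their counts stand against the shares of all genes higher and lower, which were 11.3% and 4.19% in fibroblasts, 11.9% and 10.6% in keratinocytes, 6.23% and 9.74% in macrophages and monocytes and 3.47% and 2.25% in Schwann cells. Of 23 measured genes of iron uptake, storage and export, fibroblasts had 4 higher in the IMQ library (Trf, Slc11a1, Cp and Steap1) and 1 lower (Cybrd1, a ferric reductase, 5.81-fold lower). The median log2 ratio of that list was 0.30, against 0.27 for all genes. Of 16 haem genes 2 were higher (Hpx, the haem-binding plasma protein, and Alad), and of 17 zinc transport and sensing genes 0 were higher or lower. Keratinocytes had 5 of 22 iron genes higher (Aco1, Cp, Cybrd1, Steap1 and Steap2) and 2 lower (Tfr2, a transferrin sensor, 6.11-fold, and Hamp, which encodes hepcidin, 2.76-fold). Both lower genes were scarce in either library. Tfr2 stood at 0.460 and 2.81 CPM from 30 and 97 UMIs. Hamp stood at 0.368 and 1.01 CPM from 24 and 35 UMIs (interval of the fold 1.59 to 4.84). Steap1 had 167 and 3 UMIs, a ratio of 29.4 (9.90 to 144). Of 19 zinc genes 0 were higher and 2 lower (Slc39a2 and Slc39a8, both zinc importers). These lists, too, were drawn up with earlier results known.

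Macrophages and monocytes had 1 of 15 iron genes higher (Fbxl5) and 3 lower (Trf, Slc11a2 and Cp), with Trf, transferrin, 5.26-fold lower. Cd163, the receptor that takes up haptoglobin bound to haemoglobin, was 11.9-fold lower (9.27 to 15.4), at 41.1 CPM in the IMQ library and 490.2 CPM in the control library. Cd163 marks resident macrophages, and the makeup of the gate differed as given above. The ferritin heavy chain Fth1, the main iron store, had a ratio of 1.92 in macrophages, 1.31 in fibroblasts and 1.04 in keratinocytes, and the light chain Ftl1 1.16, 0.946 and 1.83. Mtf1, the zinc sensor that drives metallothionein genes, had ratios of 1.35, 1.22 and 0.727, none past 2-fold.

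Against the same shares, acute-phase genes had 8 of 10 measured higher and 1 lower in fibroblasts, with a median log2 ratio of 2.36. Saa3 stood at 9710 CPM in the IMQ library and 12.8 CPM in the control library (761-fold higher, 714 to 812), and Saa1 and Saa2 were 883-fold and 130-fold higher. In keratinocytes 4 of 8 were higher and 1 lower. Of 10 NRF2 targets, which answer oxidants, 0 were higher in fibroblasts, 3 in keratinocytes (Nqo1, Gclm and Slc7a11) and, of 9 measured, 2 in macrophages (Slc7a11 and Gsr). Slc7a11, the cystine carrier, was 14.0-fold higher in keratinocytes and 6.09-fold in macrophages. In Schwann cells, where no member passed the rule, 3 of 12 iron genes were higher (Trf, Cp and Hfe) and 0 lower, and Trf was 6.65-fold, Cp 6.15-fold and Serpina3n 6.14-fold higher. Genes known to respond to tissue digestion had 1 of 14 higher in fibroblasts (Hspb1), 1 lower in keratinocytes (Hspb1), and in macrophages 1 higher and 4 lower, with Egr1 8.20-fold lower. T and NK cells had 0 of 14 higher and 4 lower (Fosb, Egr1, Atf3 and Hspb1), against 7.80% and 6.05% of all genes there. Schwann cells had 0 higher and 1 lower (Hspa1b).

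The genes whose levels followed each member most closely were found by the Pearson correlation of log2(CPM + 1) over 17 groups of at least 50 cells of 1 lineage in 1 library, among 13195 genes. The groups share their 2 libraries and differ in depth, so the coefficients only describe likeness. Mt1 was most like Mt2 (0.943), its neighbour on the chromosome. Mt4 followed Skint9, AA986860 and Slurp1 (each 0.966 or more), Hp followed Mmp8 (0.912), Prtn3 (0.887) and Slpi (0.858), and Hmox1 followed Naaa (0.913), Dhx58 (0.883) and Ly96 (0.880). Mt2 also followed Gli2 (0.917) and Arhgef19 (0.903), and Mt1 Bhlhe41 (0.898) and Rab34 (0.890). Lcn2 followed Lrg1 (0.746), Hspbap1 (0.738) and Steap4 (0.737), and Steap4 followed Carhsp1 (0.753), Lcn2 and Nupr1l (0.702). Slc39a14 was most like Gnas (0.849), Foxp2 and Cd79a, Slc40a1 most like Osgin1 (0.793), Stfa3 and Zkscan6, and Tfrc most like Arap2 (0.752), Sema4b and Rasgef1b.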

How the data were processed

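Single-cell RNA of dorsal skin was analysed in 1 IMQ and 1 control library. Each deposited file holds UMI counts, neither scaled nor corrected, for every gene in every barcode. Per the file headers Cell Ranger 5.0.0 wrote them; the submitters' processing notes name mm10, Seurat 2.0 and Cell Ranger 3.0.2. Aligner settings and annotation are not given in the sources used here, and the labels' protocols name 10x 3' kits. UMI counts per gene with a 3' kit read mainly transcript ends, so levels were compared between cells and not between genes. The libraries held 144054978 UMIs (IMQ) and 123088680 UMIs (control), and the precision of each value is that of its own count.

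Cells with at least 200 genes and at most 10% mitochondrial UMIs were kept. A lineage was assigned when its marker score was highest and at least 0.15, with at least 2 markers detected and the second score below 0.6 of the first; 4 of 132 markers were not found. Cells that passed 2 gates (446 IMQ and 446 control) or none (214 and 236) were left out. Near the cut-offs lay 212 IMQ and 222 control cells by their top score and 406 and 347 by their second score. Of gated cells, 98.4% lay in a cluster of the same class among 36 Leiden clusters. Predicted doublets (Scrublet, 110 IMQ and 422 control) stayed in the main values. CPM were computed from summed UMIs per lineage and library, with exact Poisson intervals; shares of cells have Clopper-Pearson and ratios exact conditional binomial intervals, all at 95%. Ratios against 0 used a floor of 3 counts in the lineage. Thinned values use 2000 UMIs per cell, leaving out 136 IMQ and 339 control fibroblasts and 46 IMQ and 15 control keratinocytes that were shallower.

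Named were the 10 members in every lineage, up to 3 called list genes with the highest and up to 3 with the lowest ratio per lineage plus Fth1, Ftl1, Mtf1 and Saa3, and the 3 genes most like each member; other list genes are named only in counts of 5 or fewer or as all called genes of a list, chosen after their values were seen. The members and lists (4 of 136 list genes not found) were chosen with earlier results of these data known. Alternatives were another scaling, cell filters, doublet removal, cluster classes, a stricter gate (run as 2 times the minimum score), subtraction of free RNA, mean CPM per cell, thinning, no UMI minimum, a 1.5-fold rule, equal subtype weights and leaving out top cells; leaving out single cells and the 30-cell limit for endothelial classes were added after seeing the data. The counting and calling steps were run on simulated Poisson counts, the model that the intervals assume. Those counts held no variation between cells or libraries, so the run checks the code and not how well the intervals suit these data. Gene positions are from GENCODE vM21 and promoters from RefSeq, both GRCm38. Python 3.11.15, numpy 2.4.6, scipy 1.17.1, pandas 2.3.3, scanpy 1.11.5 and matplotlib 3.10.9 were used.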

Additional observations from a re-analysis of the deposited data

Results flagged for a closer look

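Mt1 and Mt2 differed in opposite directions in 2 lineages, and the difference between the lineages was not tested. The log2 ratio of Mt1 was 1.67 in keratinocytes and -1.65 in pericytes and smooth muscle cells, and that of Mt2 was 1.22 and -1.62. Hp reached 1317 CPM in the 214 IMQ cells that fell below every gate, which no comparison used, against 0.884 CPM in the 236 such control cells; 1 cell held 1150 of the 1205 UMIs.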

How the results depend on the processing

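Counts of genes higher in fibroblasts (4), keratinocytes (6) and macrophages (2) stayed within 1.5 times under each alternative run, ranging from 3 to 6, 4 to 7 and 2 to 2. Of 28 calls, all 28 were made the same way under another scaling, 500 genes per cell, 5% mitochondrial UMIs, doublet removal, the stricter gate, no UMI minimum and the 1.5-fold rule. Cluster classes kept 24, mean CPM per cell 25 of 26, and equal subtype weights 11 of 14. Thinning kept 17 of 28, most losses falling under 20 UMIs. Ratios fell outside their counting intervals in 28 of 55 cases under thinning, 22 of 53 under mean CPM per cell and 18 of 55 under cluster classes. With equal subtype weights 19 of 26 did, and with doublet removal or 500 genes per cell 0 of 55. The printed intervals do not cover such choices. Under thinning the bound for Steap4 in lymphatic endothelial cells turned from 2.39 to -0.035 on the log2 scale, because the floor of 3 counts weighs more when fewer UMIs remain. No paired analysis was possible because each group has 1 library. With 1 library per group, depth sets only the counting error, and small lineages such as control blood endothelial cells (32) limit what could be seen.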
